A study of Homo sapiens with 6 samples.

Results

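The genes described here are the cadherins, protocadherins and catenins of hTERT RPE1, an established line of human retinal pigment epithelial cells immortalised with telomerase. They were chosen by symbol only. Taken in were the numbered CDH and PCDH genes, the desmocollins and desmogleins (DSC and DSG), FAT1 to FAT4, and 9 named genes for catenins, plakophilins and the large cadherins DCHS1 and CELSR2. This gave 55 of the 38900 genes in the table. Cells of all 6 libraries had been kept for 5 days after reaching confluency, which brings them to quiescence. In fresh medium they then received 100 nM combretastatin A4 (CA4, 3 libraries) or 0.1% DMSO (3 libraries) for 6 hours. CA4 binds tubulin and takes microtubules apart. Values are normalized counts, which are reads divided by a scaling factor of each library, and 1 normalized count is close to 1 read. Where 3 values are given for a group, they are those of replicates 1, 2 and 3 in that order.

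Cadherins are calcium-dependent adhesion proteins that bind partners on the neighbouring cell. The tail of a classical cadherin binds beta-catenin (CTNNB1) and p120 catenin (CTNND1), and alpha-catenin (CTNNA1) joins the complex to actin filaments in the adherens junction. In desmosomes the desmogleins and desmocollins are tied to intermediate filaments through plakoglobin (JUP), plakophilins and desmoplakin. Microtubules reach these junctions and carry cadherin to them, and the retinal pigment epithelium is known for N-cadherin and P-cadherin at its cell borders.

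Of the 55 genes, 32 averaged 10 or more normalized counts across the table and were tested. Another 18 had reads but a lower mean, and 5 had no read in any library (CDH9, CDH16, CDH17, CDH19 and PCDH20). For PCDH20, 95.8% of the exon bases are also annotated to AL592490.1 on the same strand in GENCODE 29, so reads of the 2 genes cannot be told apart and the 0 is uncertain. Nearest to the limit were PCDH12, with a mean of 21.2 inside it, and CDH1 with 8.96 and PCDH11X with 7.68 outside it. In limma's moderated test across all 13928 tested genes, 4.94% (688 genes) passed an adjusted p of 0.05. As shares of all tested genes, 2.97% were higher and 1.97% lower in CA4. Of the 32 genes, 5 passed, or 15.6%. CDH2 and PCDH7 rose, and CDH18, PCDH18 and FAT4 fell. An unadjusted p under 0.05 was found in 13 of the 32 and in 23% of all tested genes. DESeq2 on the recovered reads called 9 of the 32 and 11.6% of all tested genes, and edgeR 4 and 4.62%. DESeq2 alone added CDH6, CDH10, PCDH9 and FAT3. The median log2 fold change of the 32 was -0.0447, against -0.00818 for all tested genes. In bulk RNA, fewer cells of a type and less RNA per cell cannot be told apart. The labels do not say whether the libraries come from separate cultures on separate days, so p-values measure the spread between these samples, which may be technical.

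The libraries held 19524936 to 22538004 recovered reads. Of the markers of retinal pigment epithelium, MITF and OTX2 were well read, TTR was at 0 in every library, and RPE65 had 13.5 to 40.8 normalized counts. The summed level of the 11 markers ran from 1147 to 1854 in DMSO and from 652 to 1058 in CA4, and most of it came from MITF and OTX2. Of the 6 tested, OTX2 passed as lower, where 1.97% of all tested genes did. It kept its call in 2 of the 6 fits with 1 library left out. MITF had a log2 fold change of -0.98 (adjusted p = 0.1 in limma and 0.0117 in DESeq2). RPE65 had -0.69 (0.347 in limma) with groups that did not overlap, and BEST1, SERPINF1 and PMEL had -0.03, 0.15 and 0.30. On the first principal component, with 34.4% of the variance, DMSO replicate 1 lay nearest to the CA4 libraries, at -10.9 against -45.4 and -35.4 for the other DMSO libraries and 17.2 to 43.1 in CA4. On the second, with 21.3%, replicate 1 of both groups stood apart, at 30.2 in DMSO and 34.8 in CA4. The other libraries lay between -37.7 and 2.99 there. Without DMSO replicate 1, 994 genes passed across the table, and without DMSO replicate 3 the number was 81. The part of these differences in the results on junction genes was not tested.

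RefSeq promoters are shown for the genes that passed, so that a reader can see the start regions of transcripts that rose and fell. The table used here matched 36 of the 55 genes and 4 of the 5 that passed. Each window runs from 250 bases before to 50 bases after the start site on GRCh38.p14. Where RefSeq lists several starts the most upstream is given, and which start these cells used was not measured. Capitals mark the CCAAT box.
PCDH7, rose, chr4:30720119-30720418, plus strand: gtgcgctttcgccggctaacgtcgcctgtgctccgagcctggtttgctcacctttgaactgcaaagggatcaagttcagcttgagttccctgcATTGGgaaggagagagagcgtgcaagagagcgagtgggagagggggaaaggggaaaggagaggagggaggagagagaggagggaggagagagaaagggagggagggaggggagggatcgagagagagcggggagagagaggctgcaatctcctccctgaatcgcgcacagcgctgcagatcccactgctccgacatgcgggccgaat
CDH2, rose, chr18:28177081-28177380, minus strand: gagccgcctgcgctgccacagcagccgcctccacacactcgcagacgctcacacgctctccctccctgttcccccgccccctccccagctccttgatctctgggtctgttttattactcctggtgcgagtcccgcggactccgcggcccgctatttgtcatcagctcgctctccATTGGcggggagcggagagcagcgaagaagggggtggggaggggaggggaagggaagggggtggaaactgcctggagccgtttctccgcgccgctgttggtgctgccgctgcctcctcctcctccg
PCDH18, fell, chr4:137532445-137532744, minus strand: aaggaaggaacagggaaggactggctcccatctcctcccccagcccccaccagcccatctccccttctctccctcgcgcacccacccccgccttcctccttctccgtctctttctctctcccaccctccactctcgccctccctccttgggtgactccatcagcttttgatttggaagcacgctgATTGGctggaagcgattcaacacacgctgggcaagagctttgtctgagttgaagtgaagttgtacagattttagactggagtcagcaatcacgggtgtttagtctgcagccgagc
CDH18, fell, chr5:20575664-20575963, minus strand: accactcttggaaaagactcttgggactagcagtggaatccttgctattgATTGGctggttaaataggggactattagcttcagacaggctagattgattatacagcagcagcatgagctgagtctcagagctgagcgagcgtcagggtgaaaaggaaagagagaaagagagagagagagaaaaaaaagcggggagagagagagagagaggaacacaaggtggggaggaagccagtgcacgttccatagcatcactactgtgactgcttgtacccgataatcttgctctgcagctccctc

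Each of these 4 windows held 1 CCAAT box, read as ATTGG on the strand shown. It began 65 bases before the start site in PCDH18, 76 in CDH2, 157 in PCDH7 and 200 in CDH18. On both strands CCAAT was present in 12 of the 20 tested genes with a promoter and in 34.6% of the 35116 promoters of this length. The 20 have 1 start each and include the 4 windows shown, while the 35116 hold every listed start, so the shares are not alike. The motif was added after the sequences had been seen and the 3 motifs searched first had no match in the 4 windows shown. The choice of the most upstream start was also made with the other starts in view. The E-box CAGGTG, bound by the Snail and ZEB repressors of cadherins, was in none of the 4 windows, in 4 of the 20 and in 20.6% of all. GGAATG, bound by TEAD factors, was in 0 of the 20 and in 14% of all, and TGANTCA, bound by AP-1 and the same on both strands, was in 0 of the 20 and in 7.71% of all. All motifs were searched on both strands. RefSeq lists 3 starts for CDH18 and 2 for CDH2. TGANTCA was present once at the most downstream start of each, which is not shown, and CCAAT was absent from that start of CDH18. No match of one motif overlapped a match of another in the 4 windows. A match is a description of letters, and a missing match says only that they are not in that window.

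Among the classical cadherins, which carry the catenin-binding tail, N-cadherin (CDH2) was by far the best read. CDH2 lies at chr18:27950966-28177446 on the minus strand in GENCODE 29 (GRCh38). It had 12863, 12435 and 12355 normalized counts in DMSO and 15750, 15231 and 15583 in CA4. The 6 values were tight, and every CA4 library lay above every DMSO library. CDH2 rose by a log2 fold change of 0.31 (adjusted p = 0.0452 in limma, SE 0.07), or 1.24-fold on the linear scale.

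The CDH2 call stood close to the threshold. Its limma adjusted p was 0.121 when library totals were made equal (log2 fold change 0.21), 0.107 under quantile normalization (0.21) and 0.0818 with no filter on low values, and in edgeR it was 0.0501. Left out 1 at a time, CA4 replicates 1, 2 and 3 gave 0.143, 0.091 and 0.142, and DMSO replicates 2 and 3 gave 0.152 and 0.154. Without DMSO replicate 1 it was 0.0461. The call held in DESeq2 (adjusted p = 0.000566), with a minimum mean of 50 (0.0395 in limma) and with the pseudocounts 0.1 and 5 (0.0444 and 0.0465).

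The other type I cadherins were far lower. Per kilobase of exon, CDH2 stood at 2536 ± 55.2 normalized counts in DMSO (SD, n = 3), CDH4 (R-cadherin) at 22.2 ± 10.5, CDH15 (M-cadherin, known from muscle) at 4.45 ± 0.839 and CDH3 (P-cadherin) at 4.14 ± 2.39. The lengths are unions of all annotated exons in GENCODE 29 and understate genes with long rare exons. CDH15 and CDH3 did not differ beyond their spread. CDH1 (E-cadherin) was not tested. It had 5, 1 and 34 reads in DMSO and 7, 5 and 3 in CA4, so that 34 of its 55 reads came from DMSO replicate 3. All 4 tested type I cadherins had a fold change above 0, as did 6806 of all 13928 tested genes. Both other scalings, applied to the same 6 libraries, kept all 4 above 0. CDH2 was the one that passed, where 2.97% of all tested genes passed as higher. The log2 fold changes of CDH15, CDH4 and CDH3 were 0.35, 0.58 and 0.81, and their 95% intervals, -0.54 to 1.24, -0.28 to 1.45 and -0.14 to 1.76, all included 0.

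**Figure D1:**
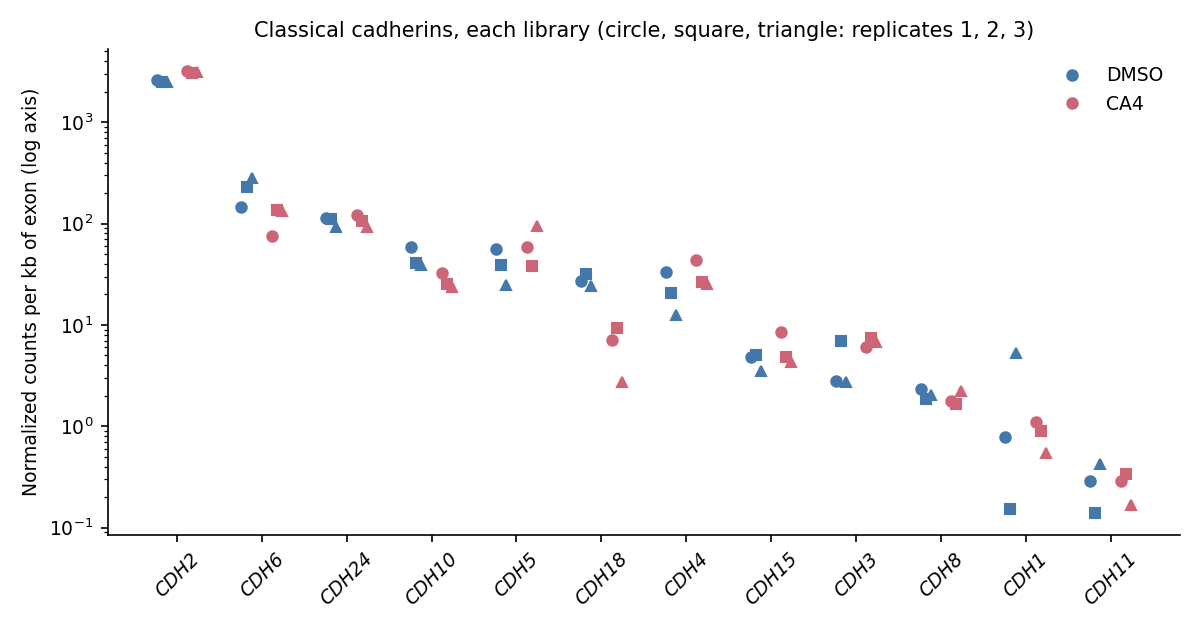
Normalized counts per kilobase of exon (vertical, log axis) for the 12 classical cadherins with a mean above 2.5 normalized counts, ordered by their DMSO mean; each point is 1 library. CDH2 lies above all others in every library, and the 3 CA4 points of CDH18 lie below its 3 DMSO points.

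Type II cadherins, many of them known from the nervous system, were spread in both directions. CDH18 had the largest fold change among the 6 tested. It had 131, 156 and 117 normalized counts in DMSO and 34.8, 44.9 and 13.4 in CA4. The CA4 values were all below the lowest DMSO value, with CA4 replicate 3 lowest. CDH18 fell by 2.23 on the log2 scale (adjusted p = 0.0323 in limma, SE 0.43), to 0.23 times the DMSO mean. It no longer passed without CA4 replicate 1 (adjusted p = 0.0767 in limma) and without DMSO replicates 1, 2 and 3 (0.0503, 0.122 and 0.107). The log2 fold change was -1.73 without CA4 replicate 3, the lowest library, and the call held there (0.0414).

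CDH6 (K-cadherin, known from the kidney) was the second classical cadherin per kilobase, at 219 ± 68.6 normalized counts in DMSO (SD, n = 3). DMSO libraries had 1799, 2872 and 3475 normalized counts of CDH6 and CA4 libraries 931, 1673 and 1640. The groups did not overlap, but DMSO replicate 1 lay close to the highest CA4 library. The log2 fold change of -0.94 had a limma adjusted p of 0.113, and 0.0432 without DMSO replicate 1. In DESeq2 on the recovered reads the adjusted p was 0.0077. In GENCODE 29, exons of 4 of the 55 genes (CDH6, CDH11, CTNND1 and PCDH20) overlap another gene on the same strand, with 8.96% of bases for CDH6 and 3.65% for CTNND1. Exons of 16 others, CDH2, CDH3, PCDH9 and DSC1 among them, overlap a gene on the opposite strand. Since the use of strand is not given, reads in either kind of overlap cannot be assigned with certainty.

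CDH10 had 215, 151 and 144 normalized counts in DMSO and 118, 92 and 86.9 in CA4. Again no CA4 library reached the lowest DMSO library, and the log2 fold change of -0.76 missed the threshold (adjusted p = 0.0901 in limma and 0.0423 in DESeq2). CDH24 (log2 fold change 0.01, 95% interval -0.33 to 0.35) and CDH8 (-0.14, -0.84 to 0.55) did not pass. CDH5 (VE-cadherin, the cadherin of endothelial junctions) had 341, 239 and 151 normalized counts in DMSO and 354, 230 and 576 in CA4. Its high value was CA4 replicate 3, and the groups overlapped (log2 fold change 0.64, adjusted p = 0.374 in limma). In that library 3 of the 5 endothelial markers, PECAM1, VWF and KDR, were also highest of the 6, at 916, 1732 and 189 normalized counts. TEK was second lowest there, at 55.7, and CLDN5 was highest in CA4 replicate 2 (68.4 against 61.3). The summed level of the 5, most of it from VWF and PECAM1, ran from 1020 to 1376 in DMSO and from 1311 to 2955 in CA4, none of the 5 was at 0 in any library, and their part in the level of CDH5 was not tested.

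The type II genes with the lowest fold changes, CDH18, CDH6 and CDH10, all lie on the short arm of chromosome 5. In GENCODE 29 CDH18 is at chr5:19472951-20575873, CDH10 at chr5:24487100-24644978 and CDH6 at chr5:31193750-31329146. CDH12 and CDH9 lie between them and had 4 reads and 0 reads in all libraries together. A count of 0 in 1 library allows up to 3 reads, for counting error only. Of the 18 classical cadherins, CDH2 made up 84.2% ± 0.974 of the summed counts per kilobase in DMSO and 89.5% ± 0.48 in CA4 (± is the SD over 3 libraries). CDH6 made up 7.3% ± 2.35 and 3.27% ± 0.995. These shares depend on each other, since they sum to the whole.

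CDH13 (T-cadherin), which is held in the membrane by a lipid anchor and has no tail for catenins, had 1466 to 2220 normalized counts in DMSO and 1478 to 2323 in CA4. The groups overlapped almost fully (log2 fold change 0.04, 95% interval -0.44 to 0.51).

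**Figure D2:**
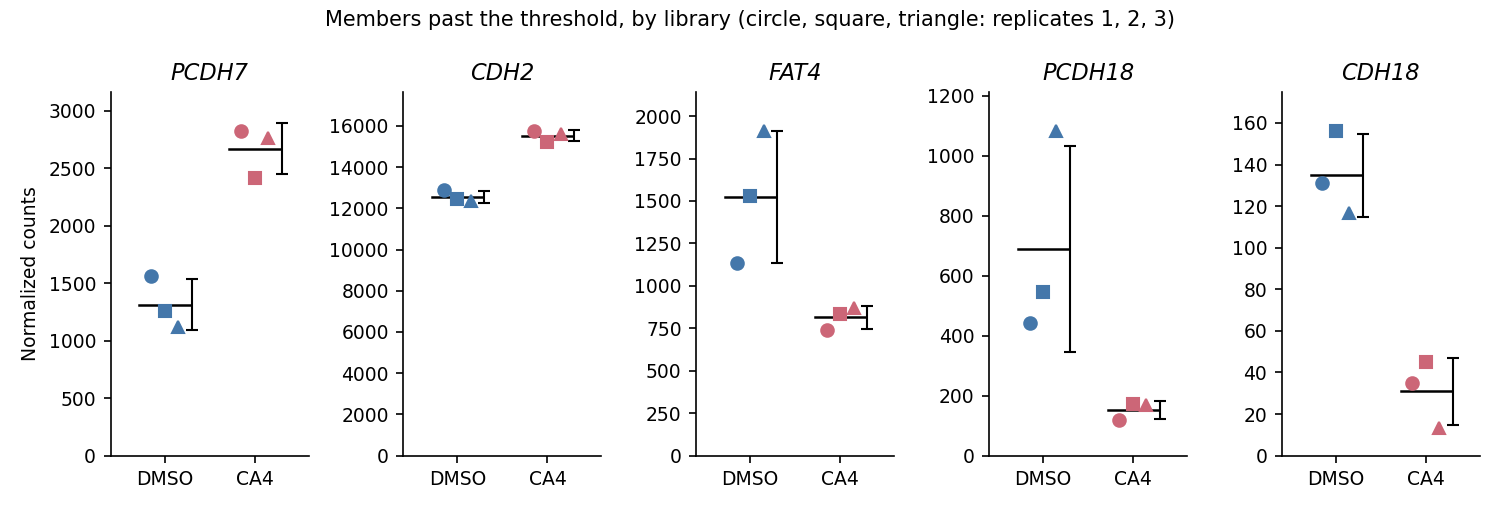
Normalized counts (vertical, from 0) in each library for the 5 genes past the threshold; lines are group means and bars 1 SD over 3 libraries. In each of the 5 panels the DMSO and CA4 points do not overlap, and the DMSO spread relative to its mean is widest in PCDH18.

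Delta protocadherins have the cadherin repeats outside the cell but lack the catenin-binding tail of classical cadherins. Of the 5 tested, PCDH7 rose, PCDH18 fell and 3 did not pass, where 4.94% of all tested genes passed. PCDH7 (delta-1) had 1562, 1257 and 1123 normalized counts in DMSO and 2824, 2413 and 2764 in CA4. The lowest CA4 library was well above the highest DMSO library. PCDH7 rose by a log2 fold change of 1.03 (adjusted p = 0.0117 in limma, SE 0.13), or 2.03-fold. Its adjusted p was just above the threshold without DMSO replicate 2 (0.0558) and without DMSO replicate 3 (0.0515), and the fold change stayed between 0.93 and 1.16 in the 6 fits without a library.

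PCDH18 (delta-2) went the other way. It had 443, 545 and 1083 normalized counts in DMSO and 119, 172 and 171 in CA4. DMSO replicate 3 stood well above the other DMSO libraries, and no values overlapped. PCDH18 fell by 2.07 on the log2 scale (adjusted p = 0.0187 in limma, SE 0.33), to 0.223 times the DMSO mean. Without DMSO replicate 3, its highest library, the log2 fold change was -1.69 and the call held (adjusted p = 0.0441 in limma). It no longer passed without DMSO replicate 2 (0.0641), CA4 replicate 1 (0.0672) or CA4 replicate 3 (0.0637).

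PCDH10 (delta-2, known as OL-protocadherin) is the neighbour of PCDH18 among the genes described, at chr4:133149315-133208606 against chr4:137518918-137532494. It was the best read protocadherin, with 6357, 4789 and 8182 normalized counts in DMSO and 8331, 6836 and 11466 in CA4. The groups overlapped, and the log2 fold change of 0.46 (95% interval -0.09 to 1.01) did not pass (adjusted p = 0.291 in limma). PCDH9 (delta-1) had 183, 130 and 255 normalized counts in DMSO and 90.8, 41.5 and 98.1 in CA4. These did not overlap, and the log2 fold change of -1.33 had an adjusted p of 0.0892 in limma and 0.0113 in DESeq2. PCDH1 (delta-1) had 600 to 897 in DMSO and 747 to 1275 in CA4 (log2 fold change 0.39, adjusted p = 0.344 in limma). PCDH12 had 15.5 to 24.7 normalized counts over all libraries.

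The Fat and Dachsous cadherins are very large proteins, and FAT4 is the known partner of DCHS1 in planar polarity and growth control. FAT4 had 1136, 1528 and 1912 normalized counts in DMSO and 738, 836 and 867 in CA4. The CA4 libraries were close together and all lower. FAT4 fell by 0.88 on the log2 scale (adjusted p = 0.0412 in limma, SE 0.18), to 0.534 times the DMSO mean. The call held in 1 of the 6 fits without a library, that without DMSO replicate 1 (0.0106). It was lost without DMSO replicates 2 and 3 (0.141 and 0.111) and without CA4 replicates 1, 2 and 3 (0.127, 0.0833 and 0.107).

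DCHS1 was low. Its level was 61.7 to 85.1 normalized counts in DMSO and 70.7 to 105 in CA4, and the groups overlapped (log2 fold change 0.24, 95% interval -0.30 to 0.78). FAT1, the most abundant of the 4 FAT genes, had 11020 to 15198 in DMSO and 12021 to 14313 in CA4, with a log2 fold change of 0.01 (95% interval -0.30 to 0.31). CELSR2, a planar polarity cadherin, also overlapped (-0.06, -0.58 to 0.46). FAT3 was low. It had 12.6, 8.41 and 6.65 normalized counts in DMSO and 26.1, 21.3 and 84.7 in CA4, with no overlap and CA4 replicate 3 far above the rest. Its log2 fold change of 1.91 did not pass (adjusted p = 0.101 in limma and 0.0175 in DESeq2), and it was 1.31 without CA4 replicate 3.

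**Figure D3:**
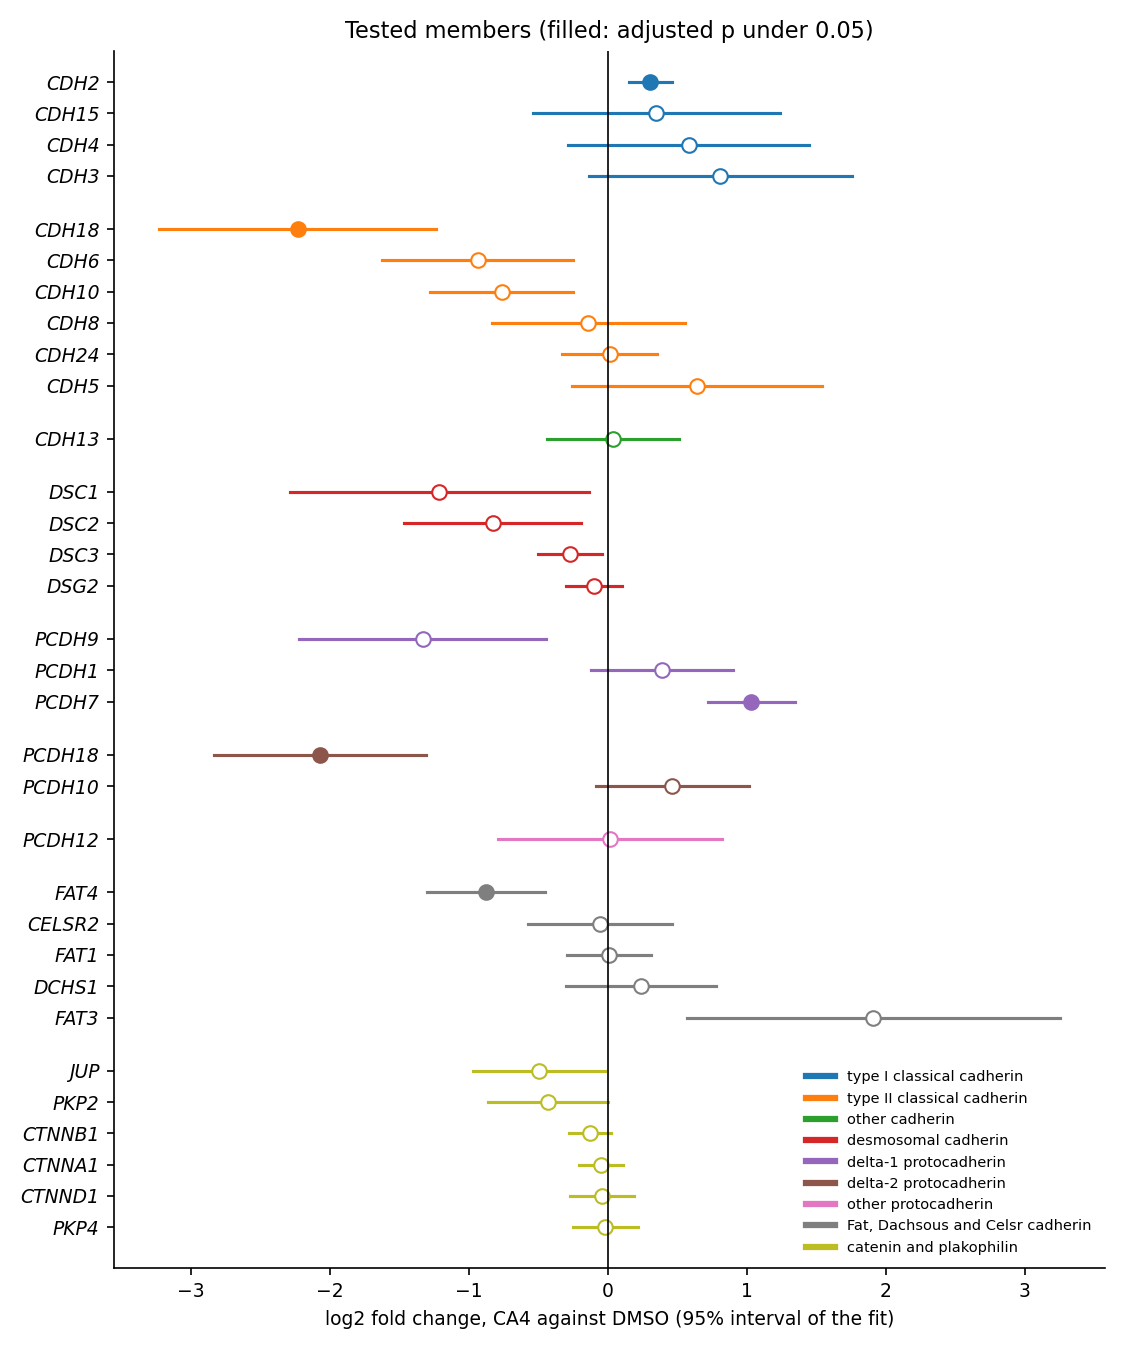
log2 fold changes (horizontal) of the 32 tested genes by role, with the 95% interval of the limma fit; filled points have an adjusted p under 0.05. CDH18 and PCDH18 lie farthest to the left, PCDH7 and FAT3 farthest to the right, and CTNNB1, CTNNA1, CTNND1 and PKP4 lie near 0 with short intervals.

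CTNNA1, CTNNB1 and CTNND1 were abundant, and none of them passed. CTNNA1 had 11286, 11234 and 10855 normalized counts in DMSO and 10966, 10955 and 10396 in CA4. The log2 fold change was -0.05, with a 95% interval from -0.20 to 0.11. CTNNB1 had 6659, 6712 and 6539 in DMSO and 6201, 5975 and 6044 in CA4. All CA4 libraries lay lower, by little (log2 fold change -0.13, 95% interval -0.28 to 0.02, adjusted p = 0.293 in limma). CTNND1 overlapped, at 6666, 7759 and 7716 in DMSO and 6530, 7841 and 7131 in CA4 (-0.04, -0.27 to 0.19). CTNND2, the neural member, had 3 reads in all.

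JUP (plakoglobin), which serves both junction types, had 2659, 3968 and 3645 normalized counts in DMSO and 1832, 2848 and 2629 in CA4. Replicate 1 was lowest in both groups, and 1 CA4 library lay above the lowest DMSO library. The log2 fold change was -0.50 (adjusted p = 0.199 in limma). PKP2 had 980, 1095 and 1378 in DMSO and 656, 946 and 972 in CA4. Its groups nearly touched, at 980 and 972 (log2 fold change -0.43, adjusted p = 0.222 in limma). PKP4 had 1403, 1651 and 1676 in DMSO and 1508, 1497 and 1658 in CA4, and these overlapped (-0.02, 95% interval -0.25 to 0.21). None of the 6 tested catenins and plakophilins passed in limma, edgeR or DESeq2, which called 4.94%, 4.62% and 11.6% of all tested genes. Of the 6, 1 had an unadjusted p under 0.05, against 23% of all tested genes.

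Desmosomal cadherins were read from 4 genes, which lie in one cluster on chromosome 18. DSG2, the desmoglein of simple epithelia, was highest, at 3546, 3550 and 3405 normalized counts in DMSO and 3494, 3366 and 2960 in CA4. These overlapped (log2 fold change -0.10, 95% interval -0.30 to 0.10). DSC3 had 800, 891 and 858 in DMSO and 689, 660 and 762 in CA4. No CA4 library reached the DMSO range, and the log2 fold change of -0.27 had a limma adjusted p of 0.16. DSC2 had 159, 242 and 250 in DMSO and 91.8, 166 and 111 in CA4, with a small overlap (-0.83, adjusted p = 0.124 in limma). DSC1 had 21.2, 34.6 and 34.2 in DMSO and 6.77, 13.5 and 18.9 in CA4 (-1.21, adjusted p = 0.173 in limma). All 4 fold changes were below 0, against 51.1% of all tested genes, also under both other scalings of the same libraries. None of the 4 passed in limma, edgeR or DESeq2, which called 4.94%, 4.62% and 11.6% of all tested genes. Of the 4, 3 had an unadjusted p under 0.05, against 23% of all tested genes. DSG1, DSG3 and DSG4 had 5, 45 and 1 reads in all.

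The 18 genes with reads but no test had few of them. CDH1, PCDH11X, DSG3, FAT2 and CDH11 had 55, 47, 45, 25 and 22 reads over the 6 libraries. CDH20 and CDH7 had 13 and 10, and PCDH17 and CDH23 had 9 and 8. CDH26, PCDH15, PCDH19 and DSG1 had 5 each, CDH12 had 4, CTNND2 had 3, and CDH22, PCDH8 and DSG4 had 1 each. No fold change is given for any of them.

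Groups that did not overlap were found in 13 of the 32 genes, against 27.7% of all tested genes. In CA4 3 were higher (CDH2, PCDH7 and FAT3), against 14.3% of all tested genes. Lower were 10 (CDH6, CDH10, CDH18, PCDH9, PCDH18, FAT4, DSC1, DSC3, CTNNB1 and PKP2), against 13.4%. Replicates also differed from one another. Replicate 1 was the lowest of both groups in 9 of the 32 genes, among them JUP, PKP2, CDH6 and FAT4, and the highest of both in 7, among them CDH2, PCDH7 and CDH10. The same 2 patterns were seen in 20.3% and 19.9% of all tested genes.

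**Figure D4:**
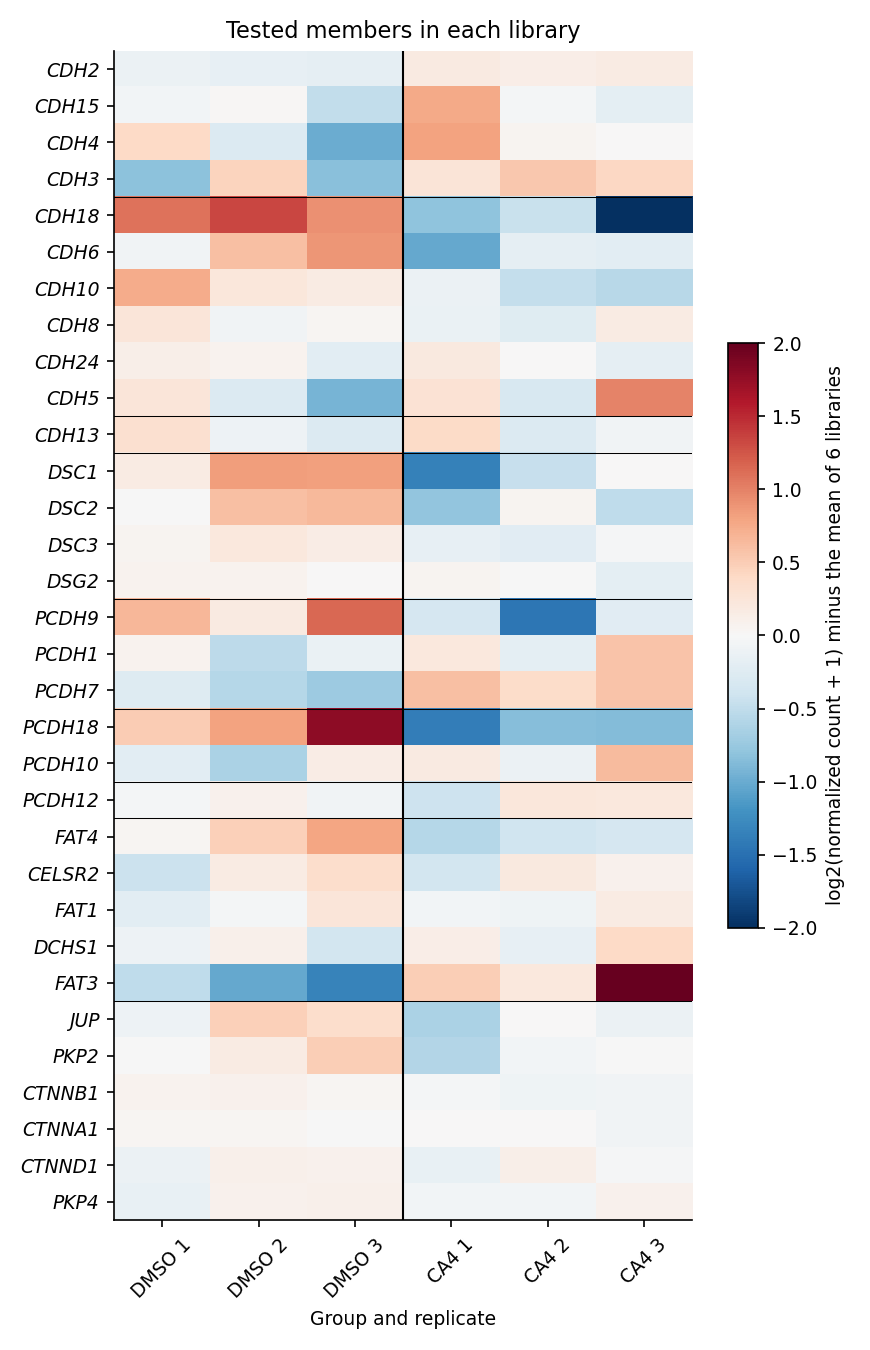
Deviation of log2(normalized count + 1) from the mean of the 6 libraries (colour, from -2 to 2) for the 32 tested genes (rows, by role) in each library (columns). CDH18 and PCDH18 are above their mean in the 3 DMSO libraries and below it in the 3 CA4 libraries, while CTNNB1, CTNNA1, CTNND1 and PKP4 at the bottom stay close to it.

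Further genes of cell adhesion were taken from 9 lists of 153 genes in all, of which 152 were found and 115 were tested. In limma 9 passed, 4 higher and 5 lower, against 4.94% of all tested genes (2.97% higher and 1.97% lower). The median log2 fold change of the 115 was -0.16, against -0.00818 for all tested genes. Of the 115, 36 were clustered protocadherins, with a median of -0.34, and the medians of the other lists ran from -0.264 to 0.288. The clustered protocadherins are encoded in 3 tandem arrays and give neurons their surface identity. None of the 36 tested of 53 passed in limma, edgeR or DESeq2, which called 4.94%, 4.62% and 11.6% of all tested genes. Of the 36, 10 had an unadjusted p under 0.05, a share near the 23% of all tested genes. Their fold changes were below 0 in 35 of 36, against 51.1% of all tested genes, with a median of -0.34, and in 36 and 33 with the same total or quantile scaling. PCDHGA6, at 0.05, was the exception in the deposited scaling and was named after its value was seen. The summed beta array had 2743, 4199 and 3743 normalized counts in DMSO and 2108, 2926 and 2545 in CA4, which overlap. The gamma array summed to 14904, 15047 and 14563 with DMSO and to 13390, 12848 and 12508 with CA4, and these did not overlap. Nor did the far lower sums of the alpha array, 316, 339 and 330 against 253, 283 and 266. By single genes, 13 of the 36 were lower with no overlap, against 13.4% of all tested genes, and 0 were higher. Genes of the gamma array share their last exons and beta genes are alike in sequence, so the split of reads between single genes is uncertain. The counts of 35 and 13 of the 36 are therefore not counts of independent genes.

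Of the catenin and desmosome genes outside the rule, DSP (desmoplakin) and CTNNAL1 (alpha-catulin) passed among 5 tested, where all tested genes had 4.94%. DSP had 19671, 12567 and 15720 normalized counts in DMSO and 38700, 28940 and 34269 in CA4. DSP rose 2.12-fold on the linear scale (adjusted p = 0.0187 in limma), while no desmosomal cadherin passed. It kept its call in 2 of the 6 fits with 1 library left out. CTNNAL1 fell by 0.50 on the log2 scale and kept its call in 1 of those 6 (adjusted p = 0.0442 in limma with all libraries). Among nectins, afadin and junction linkers, 3 of 14 passed (4.94% of all tested genes). LIMA1 and ZYX, actin-binding LIM proteins, rose by log2 fold changes of 0.74 and 0.72 (adjusted p = 0.00841 and 0.0117 in limma), and LIMA1 kept its call in 6 and ZYX in 4 of those 6. NECTIN3, an immunoglobulin-type adhesion protein of adherens junctions, fell by 0.78 (adjusted p = 0.0452 in limma) and kept its call in 0 of those 6.

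In the planar polarity list 2 of 13 passed, both lower, against 1.97% of all tested genes that were lower. PRICKLE2 went from 539, 577 and 616 normalized counts in DMSO to 235, 309 and 283 in CA4, a log2 fold change of -1.07 (adjusted p = 0.0109 in limma, SE 0.14). DVL2 (Dishevelled) fell by 0.55 (adjusted p = 0.028 in limma). With 1 library left out, PRICKLE2 kept its call in 4 of 6 fits and DVL2 in 1. Among the cadherin repressors 1 of 8 passed in limma and 4 in DESeq2, against 4.94% and 11.6% of all tested genes. TWIST1 fell from 212, 194 and 222 to 114, 128 and 116, by 0.80 on the log2 scale (adjusted p = 0.0274 in limma, SE 0.15). TWIST1 kept its call in 1 of the 6 fits with a library left out. SNAI1, ZEB1 and ZEB2 had log2 fold changes of -0.46, 0.38 and -0.60 and did not pass in limma (adjusted p = 0.0879, 0.0713 and 0.0608). DESeq2 called all 3 (adjusted p = 0.0386, 0.0187 and 0.0078).

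For beta-catenin as a gene regulator, 1 of 7 tested targets passed in limma, against 4.94% of all tested genes. MYC rose by a log2 fold change of 0.86 (adjusted p = 0.0487 in limma), kept its call in 1 of the 6 fits with a library left out, and was not called by edgeR. DESeq2 called 4 of the 7, against 11.6% of all tested genes, with MYC and CCND1 as higher and AXIN2 and TNFRSF19 as lower. AXIN2, a feedback inhibitor of the pathway, had 62.8, 33.7 and 40.8 normalized counts in DMSO and 20.3, 14.6 and 13.4 in CA4. It did not pass in limma (log2 fold change -1.43, adjusted p = 0.0647 in limma and 0.0282 in DESeq2). TNFRSF19 was also lower in each CA4 library (log2 fold change -0.999, adjusted p = 0.0859 in limma and 0.0354 in DESeq2), and CCND1 overlapped between groups (0.45, 0.134 and 0.0483). The median of the 7 was -0.0773, and 0.00718 under quantile normalization. In the destruction complex and its nuclear partners 0 of 14 passed in limma and edgeR and 2 in DESeq2, with 3 at an unadjusted p under 0.05. Over all tested genes DESeq2 called 11.6%, and 23% had an unadjusted p under 0.05, so these counts are near the background. Cadherin processing and trafficking genes gave 0 of 14 in all 3 tools, with 2 at an unadjusted p under 0.05 (23% of all tested genes) and a median of -0.0671. Calsyntenins and cadherin-related genes gave 0 of 4 in all 3 tools and 0 at an unadjusted p under 0.05 (23% of all tested genes).

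**Figure D5:**
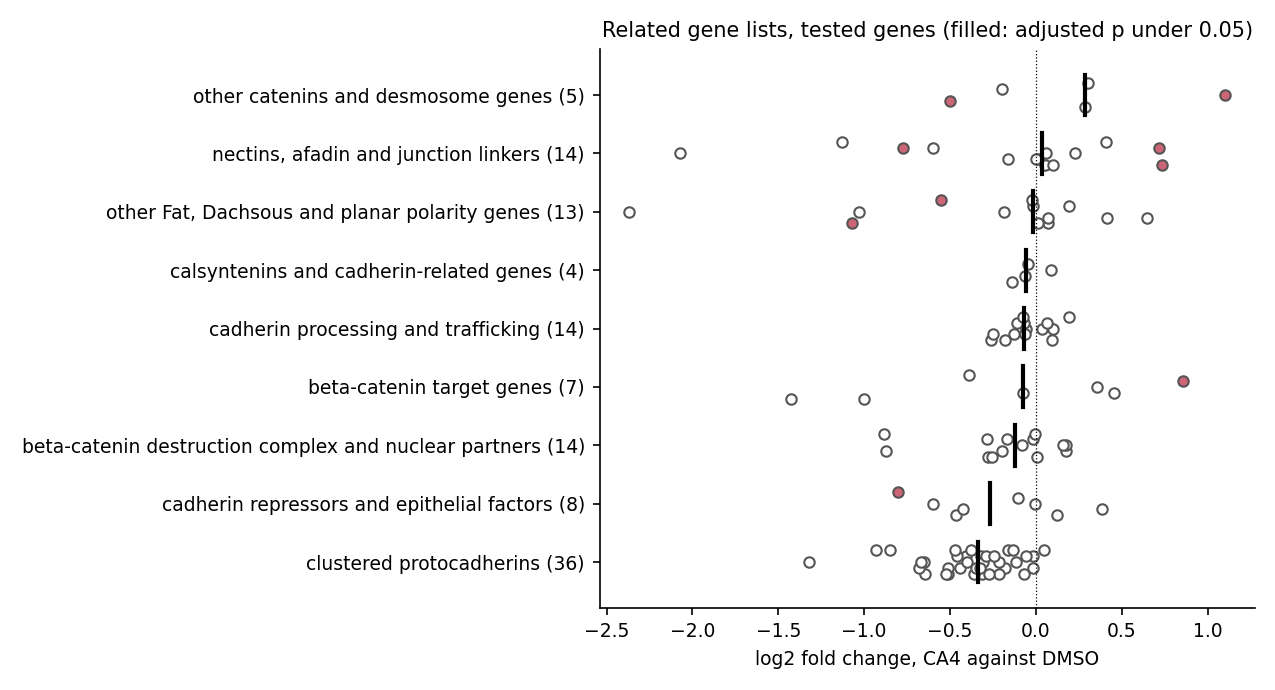
log2 fold changes (horizontal) of the tested genes of 9 adhesion lists (rows, number tested in brackets); vertical bars are list medians and filled points have an adjusted p under 0.05. DSP lies farthest to the right, and the clustered protocadherins lie almost wholly below 0 with no filled point.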

How the data were processed

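Polyadenylated RNA of 3 DMSO and 3 CA4 libraries was sequenced. The deposited table holds a signal per gene and library, deposited as normalized counts, and its column headers name libraries only. Per the submitters' processing notes the tools were Trim Galore 0.6.6, FastQC 0.12.1, STAR 2.7.9a, Salmon 1.8.0 and DESeq2 1.44.0, on GRCh38, with no role or order given. The annotation release and use of strand are not given in the sources used here, so genes that overlap or have near copies carry uncertain counts. Within a tolerance of 0.01, 100% of a column's values were multiples of a single step, so the authors' values are whole reads, or rounded estimates, divided by a factor per library. Symbols came from the supplied table for 29973 of the 38900 IDs and from GENCODE 29 for 29.

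Genes with a mean of at least 10 were tested with limma 3.58.1 (R 4.3.3) on log2(normalized count + 1), with treatment as the only term and a variance trend. p-values were two-sided and adjusted by Benjamini-Hochberg over all tested genes, with a threshold of 0.05. Fold changes on this scale understate those of low genes. Errors of means are SDs over 3 libraries. edgeR 4.0.16 (643 genes called) and DESeq2 1.42.0 were run on the recovered reads as alternatives. Scripts were tested on simulated data.

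Members, gene lists and tests were chosen with earlier results of these data known. By rule, values in every library are given for tested genes past the threshold, with an absolute log2 fold change of at least 1, or that are classical cadherins or catenins with a mean of at least 1000, and of each list up to 3 genes past the threshold with the smallest adjusted p are named. All other genes with values, SNAI1, ZEB1, ZEB2, AXIN2, TNFRSF19 and CCND1 among them, were chosen after their values were seen.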

Additional observations from a re-analysis of the deposited data

How the results depend on the processing

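Against 688 genes (413 higher, 275 lower), 5 of the 32 genes described (2 and 3) and 9 list genes, DESeq2 called 1613 (907 and 706), 9 of the 32 (6 lower) and 22 list genes. Without the variance trend the counts were 103 (51 and 52), 0 of the 32 (0 and 0) and 2 list genes, with PCDH7 at a limma adjusted p of 0.0565. Scaling to the same total gave 523 lower genes and 34.8% of calls higher against 60%, moved the median of all genes by -0.101, and left 1 of the 32 higher. Quantile normalization, edgeR and no filter also left 1 higher, since CDH2 lost its call. Blocking on the replicate number called 2397 genes (1260 and 1137), 12 of the 32 (9 lower) and 28 list genes. It kept the 5 calls (CDH2 at 0.00992) and added PCDH10 as higher (limma adjusted p = 0.00375) and JUP (0.00384), CDH6 (0.00168), PCDH9 (0.0066), CDH10 (0.0189), DSC2 (0.021) and PKP2 (0.0289) as lower. Correlations of deviations between same-numbered libraries were 0.202, 0.159 and 0.0589, and those between unlike numbers ran from -0.214 to 0.0741. Not all of the same-numbered ones were above 0.1, so libraries were not treated as paired. Each library correlated best with its own number except CA4 replicate 3. The labels do not say whether same-numbered libraries were paired, and a cut of 0.1 cannot show that they were not. Leaving out 1 library gave 81 to 994 genes (50 to 605 higher, 31 to 389 lower), 0 to 5 of the 32 (0 to 2 higher, 0 to 3 lower) and 1 to 14 list genes. Fewer libraries lower the power, and beyond that the cause was not tested. The 5 called genes kept their direction in all 80 fits, and their call in 52.

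Signs changed only among genes near 0. With the same total CDH13, CDH24, FAT1 and PCDH12 had log2 fold changes of -0.0625, -0.0876, -0.0926 and -0.0812. Under quantile normalization CDH13 and FAT1 had -0.0103 and -0.0962, and FAT1 had -6.25e-04 in DESeq2. Without 1 library the ranges were -0.145 to 0.209 for CDH13, -0.0869 to 0.108 for CDH24, -0.284 to 0.113 for CELSR2, -0.114 to 0.0224 for CTNND1, -0.0979 to 0.134 for FAT1, -0.0928 to 0.228 for PCDH12 and -0.0994 to 0.0286 for PKP4. Counting error limits genes under about 10 reads, such as most of the 23 not tested.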
